A study of Homo sapiens with 6 samples.

Results

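The genes described here are 10 members of the Hippo pathway's transcriptional arm and its feedback loops, chosen by name out of the 58302 Ensembl genes counted in the libraries. They are the coactivators YAP1 and WWTR1 (the gene of TAZ), the DNA-binding factors TEAD1 and TEAD4, the target genes CCN1, CCN2 and ANKRD1, and the regulators AMOTL2, LATS2 and AJUBA. Their symbols were matched to the Ensembl identifiers, and each of the 10 had an entry. RNA-seq was performed on cells labelled MDA-MB-231, a breast cancer cell line of mesenchymal/basal-like class, in 3 repeats expressing a control shRNA and 3 repeats expressing Smyca shRNA #1. Smyca is a nuclear lncRNA, and the comparison asks which transcripts change when it is reduced. The knockdown rests on 1 shRNA against 1 control shRNA, the Smyca hairpin being cloned into a lentiviral vector, and the labels name no ligand or drug. The study calls the repeats biological, but the labels do not say that they came from separate cultures, so each p-value measures the spread between these libraries.

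In the Hippo pathway, the kinases MST1/2 (STK4, STK3) activate LATS1/2, which phosphorylate YAP and TAZ and keep them in the cytoplasm. Unphosphorylated YAP and TAZ enter the nucleus, bind TEAD factors and switch on genes such as CCN1, CCN2 and ANKRD1, so these transcripts are widely used as readouts of YAP/TAZ activity. Because the control of YAP and TAZ is largely at the protein level, the mRNA of YAP1 or WWTR1 does not report their activity. AMOTL2 and LATS2 are targets that feed back to hold YAP in check, and AJUBA is a LIM protein that binds and restrains LATS kinases.

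Before the comparison, the libraries were checked against their labels. Total counts lay between 14999307 and 16501085 per library. MIR23AHG, the gene of Smyca, was at 25.0, 19.5 and 22.0 normalized CPM (counts scaled to a common library size by TMM) in the control and at 10.5, 6.97 and 5.61 in the knockdown, with no overlap. Its log2 ratio of control over knockdown was 1.53 (standard error 0.26, adjusted p = 0.111 by edgeR), so the target of the shRNA itself did not pass the adjusted threshold. The markers were mixed, and most of the epithelial list was counted in every library although the labels name a mesenchymal/basal-like line. Of 8 mesenchymal/basal markers, 6 had at least 10 counts in every library, among them VIM (vimentin) at 71.2 to 305, MSN at 341 to 767 and FOSL1 at 81.5 to 255 normalized CPM, while CDH2 (N-cadherin) had at most 1 count and SPARC at most 11. Of 10 epithelial markers, 9 had at least 10 counts in every library, with KRT8 at 4250 to 7410 and EPCAM at 236 to 336 normalized CPM. GRHL2 was the exception, with 0 to 17 counts. Of 10 gut and liver markers, 5 had at least 10 counts in every library, among them HNF4A at 65.4 to 194 and the brush border gene VIL1 at 220 to 501 normalized CPM, while ALB, APOA1, KRT20 and CDX1 had at most 6 counts. The libraries are therefore called by their labels below, with no statement on which cells they came from.

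Of the 9 tested genes, CCN1 and CCN2 differed most between the groups. Their transcripts were 4.41-fold and 2.46-fold higher in control than in Smyca knockdown libraries, and for both the lowest control repeat lay above the highest knockdown repeat, as in 12.4% of all tested genes. Neither was a differentially expressed gene (DEG), defined as a control/knockdown ratio of at least 1.5 or at most 0.66 with an adjusted p under 0.05. YAP1, WWTR1, TEAD1 and TEAD4, whose products drive these targets, had overlapping groups and 95% intervals of the difference that included 0. By the quasi-likelihood test of edgeR, with p-values adjusted by Benjamini-Hochberg over the 15075 genes tested, 0 of the 9 tested genes of the 10 were DEGs, against 0.0265% of all tested genes. The unadjusted p was under 0.05 in 2 of the 9, both higher in the control, where 10.4% of all tested genes met this criterion in that direction. DESeq2's Wald test called 1 of the 9, CCN1, beside 5.64% of all genes. The remaining gene, ANKRD1, had too few counts to be tested.

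YAP1 (ENSG00000137693, chr11:102110447-102233424, plus strand, GRCh38) was at 230, 207 and 175 normalized CPM in the control and 204, 198 and 260 in the knockdown. The repeats of the 2 groups were interleaved, with control repeat 3 the lowest of the 6 libraries. The log2 ratio of control over knockdown (log2 fold change) was -0.11 (standard error 0.17, 95% interval -0.50 to 0.28, adjusted p = 0.756 by edgeR's quasi-likelihood test). At this spread, the interval leaves out a ratio of 1.5 in either direction. WWTR1 (ENSG00000018408, chr3:149517235-149736714, minus strand), whose product TAZ is the paralogous coactivator, was at 23.3, 23.6 and 18.8 normalized CPM in the control and 20.1, 19.4 and 23.2 in the knockdown. It was the steadiest of the 9 tested genes, with a 1.25-fold range over the 6 libraries. Its log2 ratio was 0.065 (standard error 0.17, 95% interval -0.33 to 0.46, adjusted p = 0.862 by edgeR).

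TEAD1 (ENSG00000187079, chr11:12674421-12944737, plus strand), one of the TEAD family that places YAP and TAZ on DNA, was at 249, 236 and 163 normalized CPM in the control and 246, 244 and 316 in the knockdown. Control repeat 3 was the lowest library and knockdown repeat 3 the highest, while the other 4 lay close together, and the log2 ratio was -0.32 (standard error 0.20, 95% interval -0.77 to 0.14, adjusted p = 0.414 by edgeR). TEAD4 (ENSG00000197905, chr12:2959330-3040676, plus strand) was at 156, 138 and 86.4 normalized CPM in the control and 98.5, 135 and 114 in the knockdown. Here too control repeat 3 was the lowest of the 6 libraries. For TEAD4 the log2 ratio was 0.13 (standard error 0.23, 95% interval -0.40 to 0.65, adjusted p = 0.792 by edgeR), and it turned to -0.045 without control repeat 1.

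CCN1 (ENSG00000142871, chr1:85580761-85584589, plus strand) encodes CYR61, a secreted matricellular protein that binds integrins. Its counts were 269, 137 and 861 in the control repeats and 95, 86 and 101 in the knockdown repeats. In normalized CPM these were 16.6, 8.43 and 55.1 in the control, with a mean of 26.7 ± 24.9 (SD, n = 3), and 6.03, 5.45 and 6.67 in the knockdown, with a mean of 6.05 ± 0.61 (SD, n = 3). The knockdown repeats lay close together, whereas the control repeats spread widely and all lay above them. The log2 ratio was 2.14 (standard error 0.60, 95% interval 0.77 to 3.51), with an unadjusted p of 0.00656 and an adjusted p of 0.134 by edgeR's quasi-likelihood test. An exact two-sided permutation test of the 3 control and 3 knockdown values gave p = 0.1, the smallest that this design allows.

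The size of the CCN1 difference depended on control repeat 3, which held 4.41 times the mean of the other controls (55.1 against 12.5 normalized CPM). Controls 1 and 2 alone were 2.07-fold above the knockdown mean. Without control repeat 3, the log2 ratio was 1.04 (standard error 0.30, adjusted p = 0.0592 by edgeR). This library also differed in other respects, with 4.99% of its counts from mitochondrial genes against 1.78% to 2.72% in the other 5 libraries. Its levels of YAP1, WWTR1, TEAD1, TEAD4 and LATS2 were 0.589 to 0.803 times the mean of the other controls. AJUBA was at 1.08 times and AMOTL2 at 1.40 times. The part of these differences in the CCN1 result was not tested.

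CCN2 (ENSG00000118523, chr6:131948176-131951372, minus strand) encodes CTGF, a matricellular growth factor-binding protein that TGF-β also induces. In the 250 bases upstream of its RefSeq start (GRCh38.p14, chr6:131951373-131951622, minus strand), the core TEAD motif GGAATG, searched on both strands, occurred 3 times. The window is shown for this cluster of motifs, with each GGAATG in capitals and the start site just after the last base.
CCN2 upstream: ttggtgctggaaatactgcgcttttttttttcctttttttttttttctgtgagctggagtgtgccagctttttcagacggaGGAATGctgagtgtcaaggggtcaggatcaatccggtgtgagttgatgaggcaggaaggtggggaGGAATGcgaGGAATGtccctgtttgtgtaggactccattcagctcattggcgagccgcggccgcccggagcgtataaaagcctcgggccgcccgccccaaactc

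The matches begin 169, 104 and 95 bases before the start, all on the strand of the gene. Of 35116 upstream windows of this length in the RefSeq table, 11.9% held GGAATG at least once and 0.0826% (29 windows) held it 3 or more times. A match in letters is a description of the window and not a measurement of binding.

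The counts of CCN2 were 75, 67 and 202 in the control and 57, 39 and 41 in the knockdown. These correspond to 4.63, 4.12 and 12.9 normalized CPM in the control, with a mean of 7.23 ± 4.95 (SD, n = 3), and to 3.62, 2.47 and 2.71 in the knockdown, with a mean of 2.93 ± 0.606 (SD, n = 3). As for CCN1, control repeat 3 was far above the rest and the lowest control lay above the highest knockdown, but here the gap between control repeat 2 and knockdown repeat 1 was small. For CCN2 the log2 ratio was 1.30 (standard error 0.47, 95% interval 0.23 to 2.36), with an unadjusted p of 0.0224 and an adjusted p of 0.191 by edgeR's quasi-likelihood test. The exact two-sided permutation test gave p = 0.1, again the smallest possible. Controls 1 and 2 were 1.49-fold above the knockdown mean, and without control repeat 3 the log2 ratio was 0.57 (adjusted p = 0.234 by edgeR).

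The CCN1 and CCN2 levels of control repeat 2 also depended on the column read. In that library, the deposited FPKM values did not follow the deposited counts, with FPKM values above 0 in 3357 genes that had 0 counts. The reads behind its FPKM values were 1082 for CCN1 and 219 for CCN2, where the count column gives 137 and 67. For AMOTL2 they were 921 against 502 counts, and for YAP1 3024 against 3368. Over 15027 genes, the reads behind this FPKM column correlated at 0.9963 with the counts of control repeat 3 and at 0.9648 with the counts of its own library. With those reads in place of the counts, the log2 ratio was 2.88 for CCN1 (adjusted p = 0.0749 by edgeR) and 1.77 for CCN2 (adjusted p = 0.105 by edgeR). Which column belongs to the library cannot be told apart here, and the counts were kept as deposited.

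ANKRD1 (ENSG00000148677, chr10:90912096-90921087, minus strand), a cardiac ankyrin repeat protein and the third standard YAP readout, was barely transcribed. Its counts were 6, 4 and 1 in the control and 1, 0 and 4 in the knockdown. The groups overlapped (exact two-sided permutation test, p = 0.4, where the smallest possible is 0.1), and so few counts allow no statement on a difference. Its upstream window (chr10:90921088-90921337, minus strand) is shown as the second one with more than 1 GGAATG, again in capitals, with matches that begin 220 and 128 bases before the start.
ANKRD1 upstream: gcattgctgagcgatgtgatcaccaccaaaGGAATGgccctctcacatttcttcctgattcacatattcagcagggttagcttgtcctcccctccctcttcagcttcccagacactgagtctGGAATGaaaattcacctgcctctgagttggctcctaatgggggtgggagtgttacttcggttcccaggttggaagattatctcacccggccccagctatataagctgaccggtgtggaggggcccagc

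The RefSeq table held 10 upstream windows for 7 of the 10 genes, and GGAATG was in 5 of them, against 11.9% of all windows. Beside CCN2 and ANKRD1, these were 1 window each of YAP1, AMOTL2 and AJUBA. The letters were not in the windows of LATS2 and WWTR1. AP-1 motifs often accompany TEAD sites. The letters TGANTCA, a loose form of that motif with any base in the middle, were in 1 of the 10 windows and in 6.57% of all windows. The match, in the window of ANKRD1, reads TGATTCA, with T where the usual AP-1 motif has C or G.

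AMOTL2 (ENSG00000114019, chr3:134355347-134375479, minus strand) encodes an angiomotin-like scaffold that retains YAP outside the nucleus. It was at 48.6, 30.9 and 55.6 normalized CPM in the control and 43.0, 34.4 and 27.1 in the knockdown. Control repeat 3 was again the highest library, but control repeat 2 lay inside the range of the knockdown. For AMOTL2 the log2 ratio was 0.37 (standard error 0.25, 95% interval -0.20 to 0.94, adjusted p = 0.448 by edgeR). LATS2 (ENSG00000150457, chr13:20973036-21061586, minus strand), the kinase that YAP induces and that phosphorylates YAP in turn, was at 20.7, 21.9 and 16.0 normalized CPM in the control and 31.9, 25.0 and 17.6 in the knockdown. Knockdown repeats 1 and 2 were above all controls, and knockdown repeat 3 was not. For LATS2 the log2 ratio was -0.35 (standard error 0.24, 95% interval -0.90 to 0.21, adjusted p = 0.464 by edgeR). AJUBA (ENSG00000129474, chr14:22971177-22982551, minus strand) was at 95.5, 77.9 and 93.2 normalized CPM in the control and 139, 102 and 75.1 in the knockdown. Its knockdown repeats spanned a wider range than its controls on both sides, with a log2 ratio of -0.25 (standard error 0.22, 95% interval -0.76 to 0.26, adjusted p = 0.571 by edgeR). AMOTL2 thus lay on the side of CCN1 and CCN2, and LATS2 and AJUBA on the other. Over the 5 tested targets and regulators 3 were higher in the control and 2 lower.

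Per gene length, TEAD4, TEAD1 and YAP1 were the most abundant of the 10 genes, and the classical targets CCN1, CCN2 and ANKRD1 the least. In RPKM (reads scaled to gene length and library size), the median over the 6 libraries was 126 for TEAD4, 85.6 for TEAD1, 71.7 for YAP1 and 60.8 for AJUBA. AMOTL2 followed with a median RPKM of 20.8, WWTR1 with 16.4 and LATS2 with 7.08. CCN1 had a median RPKM of 5.31, CCN2 of 1.66 and ANKRD1 of 0.0782. Neighbours in this order had overlapping ranges over the libraries, except at the steps from AJUBA to AMOTL2, from WWTR1 to LATS2 and from CCN2 to ANKRD1. The targets were also the most variable, with a 10.1-fold range of RPKM for CCN1 and 5.22-fold for CCN2, against 1.25-fold to 2.05-fold for the other 7 tested genes. In bulk libraries, fewer cells that express a gene and less RNA per cell cannot be told apart.

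Across the 6 libraries, CCN1 and CCN2 varied together (Pearson r = 0.96 over log2 values) and YAP1 varied with TEAD1 (r = 0.91). AMOTL2 varied with CCN1 (r = 0.76) and CCN2 (r = 0.77), and TEAD1 ran the other way from CCN1 (r = -0.81) and CCN2 (r = -0.89). These are descriptions of 6 libraries that hold 2 groups and 1 control far from the rest. Among 9524 genes with a mean of at least 10 normalized CPM, the 5 with the profile most like the mean of CCN1 and CCN2 were PRDX5 (r = 0.998), NKTR (r = 0.995), TRIM52 (r = 0.995), MAP2K5 (r = 0.987) and B3GNTL1 (r = 0.986). PRDX5, a peroxiredoxin, was at 245, 233 and 283 normalized CPM in the control and 227, 223 and 223 in the knockdown, so its shape was similar at a much smaller amplitude. None of the 5 is on the list of YAP/TEAD targets used here.

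The rest of the Hippo pathway was read from lists of its other genes, together with a list of 14 genes of serum response factor (SRF) and its MRTF coactivators, which also act on CCN1 and CCN2. These lists held 67 genes in all, of which 54 were tested, 11 of them SRF/MRTF genes. By the same edgeR test, 0 of the 54 were DEGs. An unadjusted p was under 0.05 with the control higher in 8 of the 54, against 10.4% of all tested genes, and with the control lower in 4, against 8.74%. The median log2 ratio was 0.11 over the 54, 0.065 over the 9 tested genes and 0.036 over all tested genes. DESeq2 called 5 of the 54 (FHL1, GADD45A, NT5E, TAGLN and WTIP), against 5.64% of all tested genes. Without control repeat 3, 7 of the 54 were DEGs by edgeR (FHL1, FJX1, GADD45A, IGFBP3, TAGLN, WTIP and ZYX), in a fit that called 10.5% of all tested genes, so this count is near the background. Both fits called FHL1, GADD45A, TAGLN and WTIP. FHL1 and TAGLN are on the SRF/MRTF list, GADD45A on the list of YAP/TEAD targets and WTIP on that of AJUBA's relatives.

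All 6 genes of the kinase core upstream of YAP were tested, with 4 higher and 2 lower in the control. The unadjusted p was under 0.05 in 0 of the 6, against 10.4% (control higher) and 8.74% (control lower) of all tested genes. Groups without overlap were found in 0 of the 6, against 12.4% and 12.5%, so with 6 genes both counts are near the background. The log2 ratios ran from -0.071 (standard error 0.19) for STK4, the kinase MST1, to 0.24 (standard error 0.18) for MOB1B, a LATS coactivator. Among the regulators further upstream, 15 of 16 were tested and 7 were higher and 8 lower in the control. TAOK2, a kinase that activates MST1/2, was at 124, 131 and 113 normalized CPM in the control and 144, 185 and 157 in the knockdown. All its control repeats lay below the knockdown repeats, which was so for 12.5% of all tested genes. Its log2 ratio was -0.40 (standard error 0.15, adjusted p = 0.203 by edgeR). DCHS1, an atypical cadherin, had -0.40 (standard error 0.35), and its partner FAT4 had at most 4 counts in any library. The largest values on the other side were 0.37 (standard error 0.24) for TAOK3 and 0.34 (standard error 0.32) for FRMD6, a FERM-domain protein.

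Of 6 further TEAD factors and their VGLL cofactors, 3 were tested. TEAD3 was at 39.4, 29.7 and 20.9 normalized CPM in the control and 20.1, 18.6 and 25.8 in the knockdown, with overlapping groups and a log2 ratio of 0.48 (standard error 0.25, adjusted p = 0.329 by edgeR). VGLL4, which competes with YAP for TEAD, had 0.15 (standard error 0.23) and TEAD2 -0.03 (standard error 0.19). VGLL1 and VGLL2 had at most 1 count in any library. VGLL3, named after its values were seen, had 0, 0 and 3 counts in the control and 8, 12 and 6 in the knockdown, without overlap, and was too low to be tested. Of the relatives of AMOTL2, AMOT had a log2 ratio of 0.32 (standard error 1.11) and AMOTL1 at most 3 counts. Of the 4 further CCN genes, CCN6 had -0.47 (standard error 0.66) and CCN3, CCN4 and CCN5 had at most 6 counts, so CCN1 and CCN2 were the only members of their family with a tested transcript beside CCN6.

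The 3 relatives of AJUBA did not share a direction, with WTIP and ZYX higher and LIMD1 lower in the control. WTIP, a LIM protein of the Ajuba family, was at 11.0, 7.88 and 7.88 normalized CPM in the control and 4.19, 3.48 and 3.24 in the knockdown. The control repeats were all above the knockdown repeats, as in 12.4% of all tested genes, and control repeat 3 did not stand apart. Its log2 ratio was 1.29 (standard error 0.27, adjusted p = 0.111 by edgeR). ZYX, the focal adhesion protein zyxin, was at 351, 266 and 214 normalized CPM in the control and 203, 195 and 158 in the knockdown, with a log2 ratio of 0.58 (standard error 0.20, adjusted p = 0.186 by edgeR). ZYX also had no overlap, with the control higher. LIMD1 lay the other way without overlap, as in 12.5% of all tested genes, and on the same side as AJUBA. For LIMD1 the log2 ratio was -0.28 (standard error 0.15, adjusted p = 0.349 by edgeR).

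**Figure D1:**
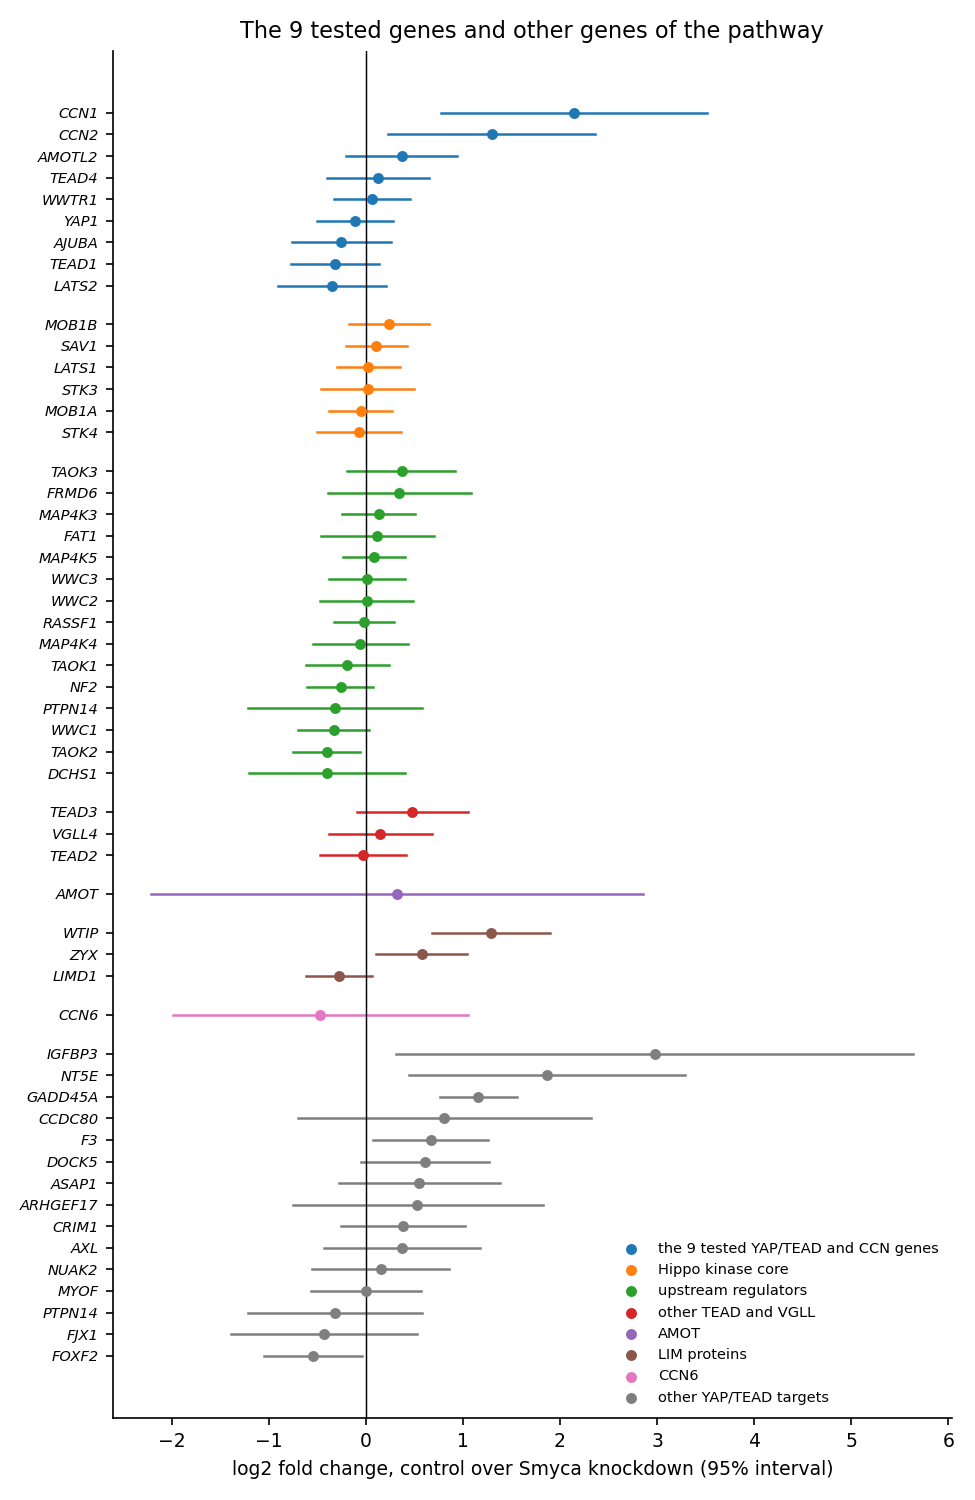
Log2 fold change of control over Smyca knockdown for the 9 tested genes and the other tested genes of the pathway lists, SRF/MRTF genes left out, with points for the estimates of edgeR's quasi-likelihood fit, bars for 95% intervals and colours for the lists (PTPN14 is on 2 lists). CCN1 (2.14) and CCN2 (1.30) lie to the right of 0, while YAP1, WWTR1, TEAD1 and TEAD4 have intervals that include 0.

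Among 17 further genes known as YAP/TEAD targets, 15 were tested, 12 were higher and 3 lower in the control, and the median log2 ratio was 0.53. Over all tested genes, 53.4% were higher in the control. The ratio was at least 1.5 in 6 of the 15, against 15.6% of all tested genes, and at most 0.66 in 0, against 5.54%. The unadjusted p was under 0.05 in 4 of the 15 with the control higher and in 1 with the control lower, against 10.4% and 8.74% of all tested genes. Groups without overlap were found in 3 of the 15, all with the control higher, against 12.4%. As the mean of log2(normalized CPM + 1) over the list, relative to its mean over the 6 libraries, the controls were at 0.45, 0.055 and 0.12 and the knockdown repeats at -0.30, -0.35 and 0.023, so control repeat 2 and knockdown repeat 3 lay close together. GADD45A, a stress-induced growth arrest gene, was at 236, 201 and 292 normalized CPM in the control and 109, 100 and 118 in the knockdown. The groups were far apart and control repeat 3 was the highest by a modest margin. Its log2 ratio was 1.16 (standard error 0.17, adjusted p = 0.111 by edgeR). NT5E, the ectonucleotidase CD73, was at 6.54, 2.77 and 4.03 normalized CPM in the control and 0.444, 0.697 and 2.51 in the knockdown, with a log2 ratio of 1.87 (standard error 0.62, adjusted p = 0.169 by edgeR).

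The target genes did not share a profile over the control repeats. IGFBP3, an insulin-like growth factor-binding protein, was at 15.8, 4.55 and 0.064 normalized CPM in the control and 0.952, 0.57 and 1.06 in the knockdown. Control repeat 3, the highest library for CCN1 and CCN2, was its lowest, and its log2 ratio was 2.98 (standard error 1.17, adjusted p = 0.219 by edgeR). FOXF2, a forkhead factor, was at 11.6, 11.2 and 13.3 normalized CPM in the control and 19.2, 20.1 and 13.1 in the knockdown, with a log2 ratio of -0.54 (standard error 0.22, adjusted p = 0.233 by edgeR). FJX1, a secreted glycoprotein, had -0.43 (standard error 0.42), with control repeat 3 at 136 normalized CPM beside 45.5 and 50.0 in the other controls. RBMS3 reached no more than 4 counts and was not tested.

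**Figure D2:**
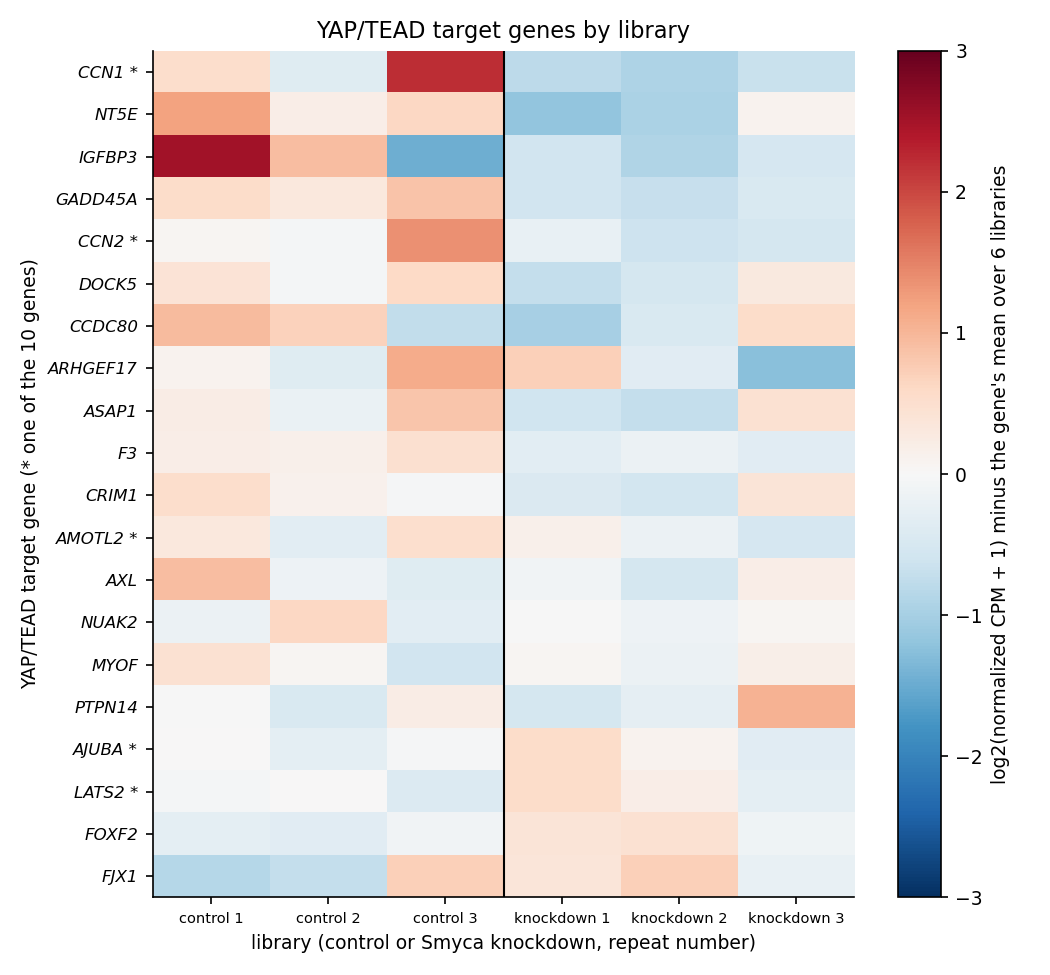
Heat map of log2(normalized CPM + 1) minus the gene's mean over the 6 libraries for the 5 tested targets and regulators of the 10 genes (asterisks) and the 15 tested genes of the target list, with 3 control columns left of the line and 3 knockdown columns right of it. CCN1 and CCN2 are reddest in control repeat 3, with CCN1 paler red in control repeat 1, while IGFBP3 is red in control repeat 1 and blue in control repeat 3.

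Of the marker lists of other cells, 1 separated the groups. The summed level of 10 gut and liver markers was 329 to 573 normalized CPM in the control and 680 to 805 in the knockdown, with CDX1 at 0 counts and ALB at 4 or fewer. The sums overlapped between the groups for the 10 epithelial markers (7360 to 8700 and 7920 to 10700), the 8 mesenchymal/basal markers (765 to 1560 and 724 to 1050) and the 6 fibroblast markers (10.5 to 31.6 and 11.1 to 14.3). They overlapped as well for 6 luminal breast markers (12.6 to 14.8 and 9.64 to 13.5), 3 endothelial markers (3.97 to 9.5 and 3.05 to 5.88) and 5 immune markers (0.8 to 1.73 and 0.381 to 1.19). PTPRC, which marks leukocytes, had 0 counts in every library. The part of these markers in the differences of CCN1, CCN2 and the target list was not tested.

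CCN1 was higher in the control in 13 of 13 alternatives, with log2 ratios of 1.04 to 2.88, and CCN2 likewise with 0.57 to 1.77. The alternatives reuse the same libraries, whose groups do not overlap for either gene, so the kept direction is no separate support. CCN1 was a DEG in 2 of the 13, with DESeq2 (adjusted p = 0.00366) and without the filter on low counts (adjusted p = 0.000579 by edgeR, where 3.01% of all genes were DEGs). Its adjusted p was between 0.0592 and 0.443 in the other 11. CCN2 was a DEG in 0 of the 13, with adjusted p-values by edgeR and DESeq2 of 0.069 to 0.491. TEAD1, AMOTL2, LATS2 and AJUBA kept their direction in each alternative, and YAP1, WWTR1 and TEAD4 changed sign in 1, 1 and 2 alternatives. The smallest log2 ratios of the genes that kept it were -0.15 for TEAD1, 0.18 for AMOTL2, -0.13 for LATS2 and -0.0035 for AJUBA.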

How the data were processed

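RNA-seq libraries of 3 control shRNA and 3 Smyca shRNA #1 repeats were grouped by their labels. Per the labels and the study's methods, reads were mapped to hg38 with TopHat2 2.0.12 and counted per gene with HTSeq. The annotation release and strand setting of the counting are not given in the sources used here. The authors deposited raw read counts and FPKM values for each library. The counts were used for all tests. The FPKM values served to derive gene lengths for RPKM and to check the files, where 100% of the values behind the FPKM column of control repeat 2 (up to 1000 reads) came within 0.05 of a whole read.

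Symbols came from GENCODE release 44 and matched 57532 of 58302 identifiers. The tests used edgeR 4.0.16 in R 4.3.3 (TMM, filterByExpr, quasi-likelihood test over 15075 genes, Benjamini-Hochberg adjustment). The code was tested on simulated data. Genes that overlap the 10 had at most 53 counts in any library. Upstream windows of 250 bases came from RefSeq (GRCh38.p14). Correlations used log2(CPM + 0.1), and the heat map a pseudocount of 1.

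The members and lists were chosen with earlier results of these data known. Named were the 10 genes, MIR23AHG, each DEG of a pathway list, up to 2 genes with the largest log2 fold change in each direction per list, genes under 10 counts in every library, and the 5 genes most like CCN1 and CCN2. GADD45A, a DEG only in alternative fits, and VGLL3 were described outside this rule, with their values known. The marker genes given by name were picked after their values were seen. The alternatives were RLE size factors, no composition factor, no filter, at least 10 counts in every library, DESeq2 1.42.0, the repeat number as a block, other thresholds, each repeat left out, and reads recovered from the FPKM values of control repeat 2 in place of its counts.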

Additional observations from a re-analysis of the deposited data

How the results depend on the processing

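Over 13 alternatives for each of the 9 tested genes, 113 of 117 log2 ratios kept their direction. YAP1 turned to 0.015 without knockdown repeat 3. WWTR1 turned to -0.093 and TEAD4 to -0.091 with reads recovered from the FPKM values of control repeat 2, and TEAD4 to -0.045 without control repeat 1. The cause was not tested. Of the 10 genes, 1 was a DEG (CCN1) with DESeq2 and 1 (CCN1) without the filter on low counts, and leaving out each repeat gave 0 in each case. With a repeat left out, the log2 ratio was -0.20 to 0.015 for YAP1 and -0.045 to 0.33 for TEAD4. Among the other Hippo pathway genes and the SRF/MRTF genes, pooled, there were 0 DEGs in the reported fit, 6 without the filter, 5 with DESeq2, 1 with the FPKM reads, and 0 to 7 with a repeat left out, the 7 being without control repeat 3. Over all genes the count was 4 in the reported fit, 8 without a composition factor, 916 without the filter, 850 with DESeq2, 10 with the FPKM reads, 8 at an adjusted p under 0.1, and 0 to 1628 with a repeat left out, the 1628 being without control repeat 3.

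Samples with the same repeat number correlated at 0.0536, 0.0938 and 0.0207 in their deviations from the group means, and 3 of 6 correlated best with their own number, so the numbers were not taken as pairs. With the repeat number as a block, 0 of the 10 genes and 0 genes over all were DEGs, and the log2 ratio was 1.72 for CCN1 (adjusted p = 0.202 by edgeR) and 1.12 for CCN2 (adjusted p = 0.283 by edgeR). The counts of ANKRD1 limit what can be said of it.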

Other observations

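CCN1 and CCN2 are also targets of serum response factor (SRF) and its actin-regulated coactivators of the MRTF family, so 14 genes of this pathway were read beside them. Of the 11 tested, 6 were higher and 5 lower in the control, the median log2 ratio was 0.23, and 0 were DEGs by the Benjamini-Hochberg adjusted p of edgeR, where an unadjusted p was under 0.05 in 2 with the control higher, against 10.4% of all tested genes, and in 2 with the control lower, against 8.74%. TAGLN, the smooth muscle actin-binding protein SM22, was at 16.0, 15.3 and 10.8 normalized CPM in the control and 7.49, 5.83 and 5.81 in the knockdown, with a log2 ratio of 1.14 (standard error 0.24, adjusted p = 0.111 by edgeR). FHL1, a LIM-only muscle protein, was at 213, 164 and 107 normalized CPM in the control and 82.5, 54.9 and 81.9 in the knockdown, with a log2 ratio of 1.14 (standard error 0.27, adjusted p = 0.117 by edgeR). For both genes, 2 of the 11 tested, all control repeats lay above the knockdown repeats, as in 12.4% of all tested genes, and control repeat 3 was the lowest control rather than the highest.

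SRF itself lay the other way, at 97.9, 80.2 and 73.1 normalized CPM in the control and 124, 133 and 94.2 in the knockdown, with a log2 ratio of -0.48 (standard error 0.18, adjusted p = 0.206 by edgeR) and overlapping groups. MRTFA, its coactivator, had -0.31 (standard error 0.13, adjusted p = 0.259 by edgeR) with no overlap, as in 12.5% of all tested genes. ACTG2 and CNN1, the smooth muscle actin and calponin genes, had at most 3 counts in any library.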
